A study of Mus musculus with 30 samples.

Results

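Opposite-strand genes, whose names are those of a known gene followed by "os" and sometimes a number, were followed in the denervated spinal cord after stroke. Of the 16995 genes of the deposited table, 103 had such a name, and 98 of these were described in the table as lying on the opposite strand of the gene they are named after. The other 5 (Mocos, Minos1, Nrros, Nanos1 and Selenos) are ordinary protein-coding genes whose names end in these letters by chance, and they were left out. The label noncoding did not hold for all of the 98: the GENCODE M21 annotation (GRCm38, the mm10 build of the table) gave 74 as antisense, 8 as lincRNA, 5 as processed transcripts, 2 as transcripts of a bidirectional promoter, 1 as a unitary pseudogene and 8 as protein-coding.

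The RNA came from the intermediate laminae of spinal levels C5/C6, on the side that had lost its corticospinal input, of adult C57BL/6 mice, which were all female according to the methods of the study. A photothrombotic stroke had been placed in the sensorimotor cortex, and the tissue was taken at 4, 7, 14, 28 or 42 days post-injury (dpi). The group named Ctrl in the labels went through a sham procedure in which the light was left off. Values were available for 29 animals, 4 at 4 dpi and 5 in each other group, with 1 library per animal. The piece was trimmed by hand and holds all cell types of the tissue, so that fewer cells of a type and less RNA per cell cannot be told apart.

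An opposite-strand transcript is read from the DNA strand that does not code for its neighbour. Such transcripts can start back to back with the neighbour at a shared promoter, can cross one of its ends, or can lie wholly within its body, often in an intron. Some are known to act on the neighbouring gene, some are the precursors of small RNAs, and for many no function is known. Many are kept at low levels and in the nucleus.

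The 98 genes were grouped by their position. The named gene could be located for 96 of them, and all 96 lay on the opposite strand of the same chromosome. In 36 cases the opposite-strand gene lay wholly inside the body of its gene, in 27 the starts of both lay within 1 kb of each other and pointed apart (head-to-head), 25 overlapped their gene in part, and 8 were apart from it. Of the 36 inside their gene, 27 had at least 90% of their exon bases within introns of the other strand. Across all 98, this share reached 90% in 32 genes and was complete in 21.

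Promoter windows are printed for 3 genes that lie inside their gene and were higher at 28 dpi (Grip1os1, Bcas3os1 and Dnm3os) and for 2 head-to-head genes (Cyp4x1os, which was higher at 28 dpi, and Lppos, which was not), because the 2 classes differ in the number of CG pairs at their starts. Each window holds 300 bases, 250 before and 50 after the start, from the RefSeq promoter table (GRCm38.p6), written 5′ to 3′ on the strand of the opposite-strand gene. Every CG pair is in capitals. The windows lie at chr10:119852341-119852640 (minus strand) for Grip1os1, chr11:85719695-85719994 (minus) for Bcas3os1, chr1:162217373-162217672 (plus) for Dnm3os, chr4:115133582-115133881 (plus) for Cyp4x1os and chr16:24393606-24393905 (minus) for Lppos.
Grip1os1: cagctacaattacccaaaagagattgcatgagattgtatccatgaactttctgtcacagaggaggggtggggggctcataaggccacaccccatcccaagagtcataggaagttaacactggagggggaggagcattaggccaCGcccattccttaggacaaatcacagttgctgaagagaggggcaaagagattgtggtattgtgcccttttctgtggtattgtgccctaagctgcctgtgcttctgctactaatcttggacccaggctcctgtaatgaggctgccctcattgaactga
Bcas3os1: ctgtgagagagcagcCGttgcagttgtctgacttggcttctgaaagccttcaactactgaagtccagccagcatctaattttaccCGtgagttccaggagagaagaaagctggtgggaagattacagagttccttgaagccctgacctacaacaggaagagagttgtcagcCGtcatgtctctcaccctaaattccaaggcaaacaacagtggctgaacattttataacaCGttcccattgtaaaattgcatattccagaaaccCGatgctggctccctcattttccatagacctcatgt
Dnm3os: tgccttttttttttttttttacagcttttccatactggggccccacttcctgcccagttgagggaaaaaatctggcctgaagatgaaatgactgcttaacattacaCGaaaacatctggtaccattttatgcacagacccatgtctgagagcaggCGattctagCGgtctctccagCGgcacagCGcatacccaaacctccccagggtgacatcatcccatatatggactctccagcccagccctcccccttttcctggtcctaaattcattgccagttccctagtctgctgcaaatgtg
Cyp4x1os: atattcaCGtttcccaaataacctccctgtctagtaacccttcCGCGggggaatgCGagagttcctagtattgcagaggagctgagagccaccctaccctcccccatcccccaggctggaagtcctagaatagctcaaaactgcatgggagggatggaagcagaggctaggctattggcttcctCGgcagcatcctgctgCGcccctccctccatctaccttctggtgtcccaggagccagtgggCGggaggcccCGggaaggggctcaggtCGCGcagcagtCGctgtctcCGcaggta
Lppos: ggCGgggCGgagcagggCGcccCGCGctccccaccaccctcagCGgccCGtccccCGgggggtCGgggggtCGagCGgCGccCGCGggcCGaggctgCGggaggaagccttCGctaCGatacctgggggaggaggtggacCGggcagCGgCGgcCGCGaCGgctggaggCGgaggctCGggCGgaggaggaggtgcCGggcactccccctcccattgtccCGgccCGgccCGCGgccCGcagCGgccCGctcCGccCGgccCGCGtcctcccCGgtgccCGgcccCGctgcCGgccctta

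The windows of Grip1os1, Bcas3os1 and Dnm3os hold 1, 5 and 5 CG pairs, that of Cyp4x1os 12 and that of Lppos 43. RefSeq windows were found for 58 of the 98 genes, and 44 of these started within 100 bases of the start in the table. Among the 44, the median was 4.5 CG pairs for the 14 genes inside their gene, 7.5 for the 14 that overlap in part and 28 for the 13 head-to-head genes. At least 10 pairs were present in 3 of the 14, 6 of the 14 and 12 of the 13, against 43.9% of all 27025 promoters of the RefSeq table, whose median was 7. The letters CG read the same on both strands, and no test was made of these counts.

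Dnm3os is the precursor of microRNAs. Its 7928 bases on the plus strand of chromosome 1 hold the hairpins of Mir199a-2 and Mir214, which RefSeq places at chr1:162217814-162217923 and chr1:162223368-162223477. Their mature sequences are shown because they are annotated small products of a gene that rose here, with the seed, bases 2 to 8, in capitals.
mmu-miR-199a-5p: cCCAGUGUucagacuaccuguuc
mmu-miR-199a-3p: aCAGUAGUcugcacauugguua
mmu-miR-214-5p: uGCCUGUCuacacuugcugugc
mmu-miR-214-3p: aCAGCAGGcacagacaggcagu
The 4 seeds differ from one another. Neither microRNA has a row of its own in the table, and their levels were not analysed here.

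At 28 dpi, 20 of the 98 opposite-strand genes were higher than in Ctrl animals and 1 was lower. These calls depended on the scaling and on single animals: 12 were called higher without animal A3-3, where the share over all genes was 2.24% in place of 4.15%. With the level of 18S ribosomal RNA as a covariate in limma, 0 of the 98 and 0 of all genes were called, and 35 of the 98 had an unadjusted p under 0.05, against 22.1% of all genes. With every animal scaled to the same sum, which moved the median of all genes to -0.71, limma called 0 of the 98 higher and 20 lower, against 0.2% and 63.9% of all genes, and 24 of the 98 had an unadjusted p under 0.05, against 69.9%. A gene was called when its adjusted p (limma on log2 of the normalized CPM plus 0.5, with Benjamini-Hochberg adjustment over all 16995 genes) was under 0.05 and its change above 1.5-fold. Over all genes of the table, 4.15% were called higher and 0.488% lower by this rule with all animals. The 98 genes had a median log2 fold change of 0.34, with 75 above 0 and 23 below, against a median of -0.0048 over all genes. Every 28 dpi animal lay above every Ctrl animal for 19 of the 98 genes, and 6.15% of all genes were separated in this way. For 1 of the 98, every 28 dpi animal lay below every Ctrl animal, against 3.75% of all genes.

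The called genes were found mainly in the class that lies inside its gene. In that class, 16 of 36 rose, the median log2 fold change was 0.53, and 32 of 36 were above 0; with every animal scaled to the same sum the median was -0.027, where that of all genes was -0.71. Of the 25 genes that overlap their gene in part, 2 rose, with a class median of 0.34. Of the 27 head-to-head genes, 2 rose as well, with a median of 0.10, and 12 of the 27 were below 0. None of the 8 genes apart from their gene rose, 1 fell, and 3 of the 8 had an unadjusted limma p under 0.05, as did 38.5% of all genes at 28 dpi. The plot of changes by time and position shows these classes at each time point.

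**Figure D1:**
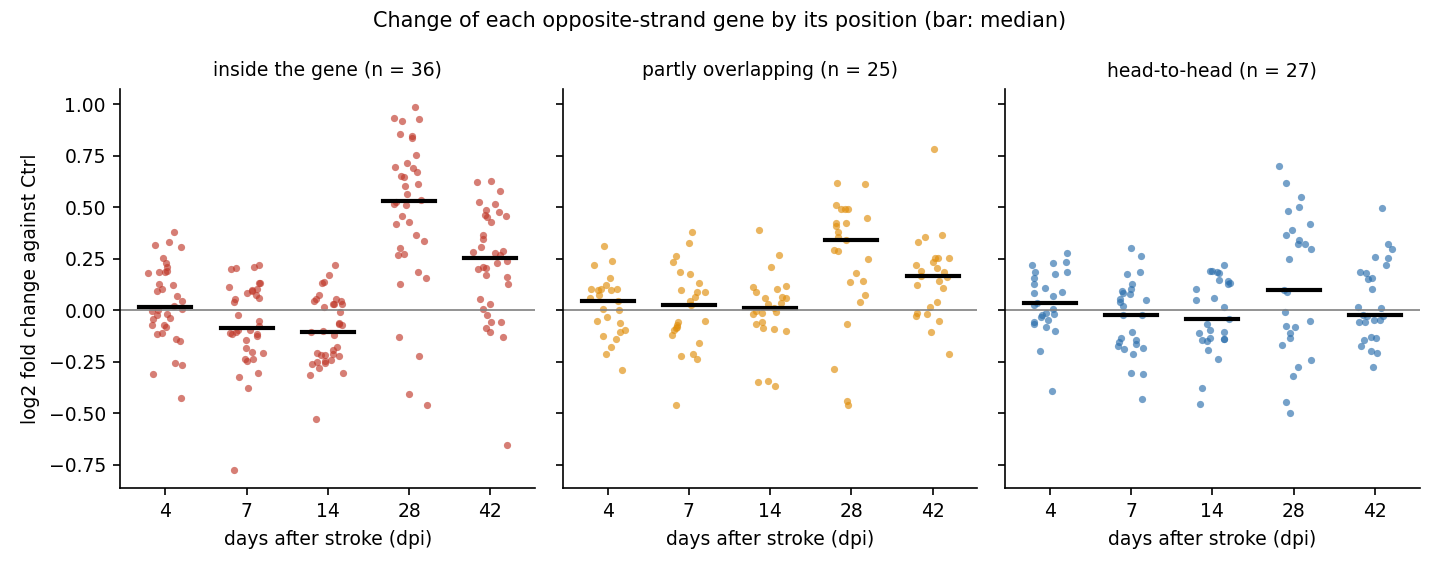
Log2 fold change of each opposite-strand gene against Ctrl (vertical axis, 1 point per gene) by day after stroke (horizontal axis), in separate panels for genes inside their gene (n = 36), partly overlapping it (n = 25) and head-to-head with it (n = 27). The bars are medians; at 28 dpi they stand at 0.53, 0.34 and 0.10 on the deposited scale, and at -0.027, -0.20 and -0.41 with every animal scaled to the same sum, where all genes have -0.71.

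Grip1os1 showed the largest rise. It is an antisense gene with exons totalling 2157 bases at chr10:119825204-119852390 (minus strand), all of them within introns of Grip1, which codes for a scaffold protein of glutamate receptors at synapses. Its normalized CPM was 1.1, 0.5, 0.7, 0.7 and 0.6 in the Ctrl animals (mean 0.72 ± 0.228, SD, n = 5) and 1.1, 3, 1.9, 2 and 1.8 at 28 dpi (mean 1.96 ± 0.68, SD, n = 5). Of the 28 dpi animals, 4 lay above the whole Ctrl range and the other one equalled the highest Ctrl animal. The log2 fold change was 0.99 (SE 0.22, limma adjusted p = 0.00285).

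Bcas3os1 lies within introns of Bcas3, the gene of a microtubule-associated cell migration factor, at chr11:85702200-85719744 on the minus strand. Its values were 2, 1.7, 0.9, 1.8 and 1.1 in Ctrl animals and 2.7, 4.1, 2.8, 3.3 and 3.4 at 28 dpi, so that the groups did not overlap. The log2 fold change was 0.93 (SE 0.22, limma adjusted p = 0.00435).

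Rapgef4os2, at chr2:72224688-72232302 on the minus strand, rose at a gene whose own values were lower. Rapgef4 codes for an exchange factor of Rap GTPases that is switched on by cyclic AMP. The opposite-strand gene had values of 0.4, 0.8, 0.8, 0.8 and 0.8 in Ctrl animals and 1.5, 2.9, 1.9, 1.3 and 1.7 at 28 dpi, without overlap (log2 fold change 0.93, SE 0.23, limma adjusted p = 0.00534). Rapgef4 itself had 146.1, 148.8, 133.7, 141.5 and 134.5 in Ctrl animals and 128.1, 103.1, 116.1, 118.9 and 134.4 at 28 dpi. Its log2 fold change was -0.23 (limma adjusted p = 0.0102), below the 1.5-fold limit, and 1 of its 28 dpi animals lay within the Ctrl range. A second member of this locus, Rapgef4os3, stood at a log2 change of 0.61 (limma adjusted p = 0.0282), with 3 of 5 animals at 28 dpi above the Ctrl range.

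Plxna4os2, within introns of the semaphorin receptor gene Plxna4 at chr6:32451170-32454750 (plus strand), had 1.2, 2.1, 2.1, 2.1 and 1.9 in Ctrl animals. At 28 dpi it had 3.1, 4.9, 3.2, 4.5 and 4.3, again with no overlap. The log2 fold change was 0.92 (SE 0.19, limma adjusted p = 0.00203).

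Dnm3os, the microRNA precursor described above, lies within introns of Dnm3, which codes for a dynamin, a GTPase of membrane fission. Its values were 6.5, 4.5, 4.3, 5.8 and 5.1 in Ctrl animals and 8, 15.1, 10.6, 9.5 and 7.3 at 28 dpi. All 28 dpi animals were above all Ctrl animals, and the highest of them was at 15.1, with the next at 10.6. The log2 fold change was 0.86 (SE 0.20, limma adjusted p = 0.00431).

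Macrod2os1 and Kirrel3os had the highest Ctrl levels per kb of exon among the genes inside their gene that rose, at 2.59 and 2.01 CPM per kb. Kirrel3os, within introns of the gene of the synaptic adhesion protein Kirrel3, had 10.1, 6.3, 7, 8.4 and 6.4 in Ctrl animals and 13.8, 18.4, 13.5, 13.1 and 11.7 at 28 dpi (log2 fold change 0.85, SE 0.17, limma adjusted p = 0.00172). Macrod2os1, within introns of the gene of the ADP-ribose hydrolase Macrod2, had 9.1, 7.5, 8.4, 6.8 and 8.8 in Ctrl animals and 11.3, 18.4, 12.7, 13.6 and 11 at 28 dpi (log2 fold change 0.67, SE 0.13, limma adjusted p = 0.00162). Neither pair of groups overlapped. Of the 31-base words of Macrod2os1, 43.0% also occur in another gene of the annotation, most often Macrod2os2, so that the counts of this pair are uncertain.

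**Figure D2:**
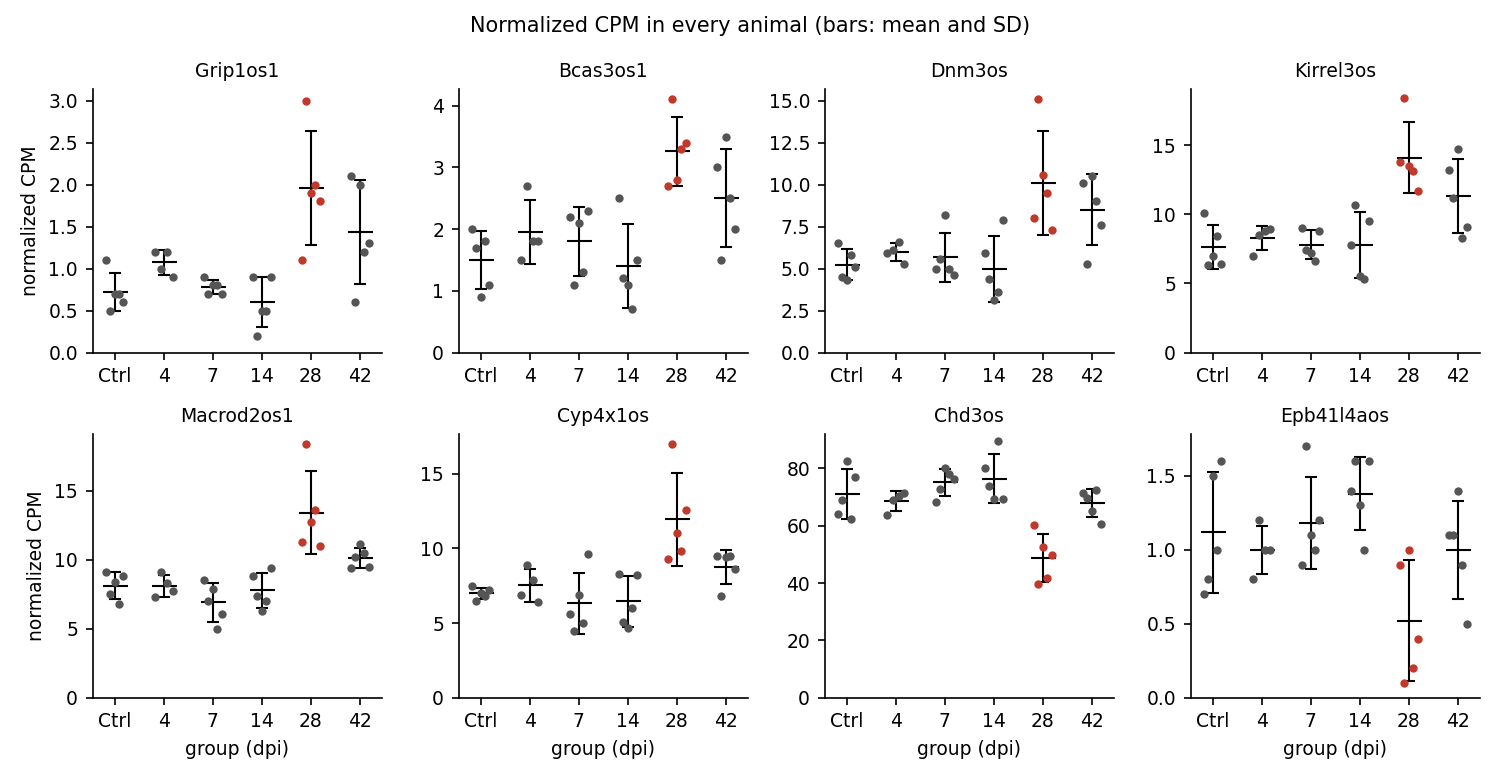
Normalized CPM (vertical axis, starting at 0) of 8 opposite-strand genes in every animal (points), by group (horizontal axis: Ctrl and days after stroke), with mean and SD as bars and the 28 dpi animals in red. Grip1os1, Bcas3os1, Dnm3os, Kirrel3os, Macrod2os1 and Cyp4x1os are higher at 28 dpi, while Chd3os and Epb41l4aos are lower; Grip1os1 at 28 dpi runs from 1.1 to 3.

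The other called genes inside their gene had log2 fold changes between 0.60 and 0.84. Ppp2r2cos, in introns of the gene of a regulatory subunit of protein phosphatase 2A, had 2, 1.9, 1.3, 1.6 and 1.7 in Ctrl animals and 2.9, 4.9, 2.8, 4.3 and 2.6 at 28 dpi. The groups did not overlap, and the log2 fold change was 0.84 (SE 0.19, limma adjusted p = 0.00384). Mecomos, within the gene of the zinc-finger transcription factor Mecom, had the narrowest spread, with 3, 3.3, 2.4, 3.1 and 2.9 in Ctrl animals and 5, 5.6, 5, 4.9 and 5.1 at 28 dpi (log2 fold change 0.71, SE 0.17, limma adjusted p = 0.0045). Mypopos, within the gene of a Myb-related transcription factor, had 2.4, 2.8, 1.9, 2.6 and 2.2 against 3.3, 4.6, 4.8, 3.7 and 3.7, without overlap (log2 fold change 0.65, limma adjusted p = 0.00813).

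Sorbs2os, at the gene of an actin-associated adaptor protein, had a log2 change of 0.75 (limma adjusted p = 0.00496), and 42.5% of its exon bases lie on exons of the other strand. Nrg3os, in introns of the gene of neuregulin 3, a ligand of ErbB4, had 0.70 (limma adjusted p = 0.014), and 3 of its 28 dpi animals lay above the Ctrl range. Sap30bpos had 0.69 (limma adjusted p = 0.0207) and Pitpnm2os2 0.65 (limma adjusted p = 0.0105), both with separated groups. The genes they are named after code for a transcriptional co-regulator and a phosphatidylinositol transfer protein. The smallest called change was that of Far2os1 (0.60, limma adjusted p = 0.0145), which falls outside the limit of 20 on named genes and was named after its values were seen.

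Of the head-to-head genes, Cyp4x1os and Mccc1os rose. Cyp4x1os starts 145 bases from the start of Cyp4x1, the gene of a cytochrome P450, at chr4:115133832-115137864 on the plus strand. Its values were 7.5, 6.5, 7, 6.8 and 7.2 in Ctrl animals and 9.3, 17, 11, 9.8 and 12.6 at 28 dpi, with no overlap (log2 fold change 0.70, SE 0.17, limma adjusted p = 0.00493). Mccc1os, at the gene of a carboxylase subunit of leucine breakdown, had 7, 6.9, 7.6, 5.8 and 6.3 against 10.6, 13.2, 9, 11 and 9.4 (log2 fold change 0.62, SE 0.12, limma adjusted p = 0.0016). Mccc1os is the longer of the pair, and 58.4% of its exon bases lie in introns of the other strand, while Cyp4x1os has none there and 22.5% on exons.

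Of the genes that overlap their gene in part, Il1bos and Gimap1os rose. Il1bos, at the gene of interleukin 1 beta, had 2.6, 1.8, 2.4, 2 and 2 in Ctrl animals and 2.9, 4.9, 3.1, 3.8 and 3.4 at 28 dpi, without overlap (log2 fold change 0.62, SE 0.17, limma adjusted p = 0.0111). Il1b itself has no row in the table. Gimap1os, at the gene of an immune-associated GTPase, had 0.7, 0.8, 0.8, 0.5 and 1 against 1.6, 2.5, 1.3, 1 and 1 (log2 fold change 0.61, SE 0.20, limma adjusted p = 0.0282). Of its 28 dpi animals, 3 were above the Ctrl range, and 35.7% of its exon bases lie on exons of the other strand.

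Epb41l4aos, a lincRNA gene near the gene of a band 4.1 protein, was the one that fell. It had 0.7, 0.8, 1.5, 1 and 1.6 in Ctrl animals and 0.9, 0.1, 1, 0.2 and 0.4 at 28 dpi (log2 fold change -0.73, SE 0.22, limma adjusted p = 0.0184). The groups overlapped, 3 of the 5 animals at 28 dpi lay below every Ctrl animal, and all values were at most 1.6 in these 2 groups. Its call was lost in 4 of 10 fits with 1 animal of these 2 groups removed, those without Ctrl A12-1, Ctrl A12-3, 28 dpi A3-3 or 28 dpi A4-3, with limma adjusted p between 0.0597 and 0.0806.

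Of the 8 protein-coding opposite-strand genes, none was called by limma at 28 dpi in either direction, 4 had an unadjusted p under 0.05 (38.5% of all genes did), and the median log2 fold change was -0.11. Of the 90 genes not annotated as protein-coding, 20 rose and 1 fell, with a median of 0.37, and the difference between these sets was not tested. Chd3os, at chr11:69340461-69342641 on the plus strand, came closest to a call downward. Its values were 64.2, 69, 82.7, 62.2 and 77.1 in Ctrl animals and 60.3, 39.8, 52.6, 41.8 and 49.9 at 28 dpi, with no overlap. The log2 fold change of -0.54 (SE 0.09, limma adjusted p = 0.00139) stays short of the 1.5-fold limit. Cebpzos, at the gene of a CCAAT-binding factor, had a change of -0.46 (limma adjusted p = 0.0308), also short of that limit.

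The 5 highest levels per kb of exon were those of genes that did not rise, but Cyp4x1os, which rose, stood close below them at 3.49 CPM per kb. In Ctrl animals Chd3os had 34.1 CPM per kb, Wdr83os, which codes for a membrane protein of the endoplasmic reticulum, 7.95, Cebpzos 5.46, Rab10os 3.97 and Fam120aos 3.51. At 28 dpi, Wdr83os had a log2 change of -0.24 (limma adjusted p = 0.142), Rab10os -0.07 (limma adjusted p = 0.591) and Fam120aos -0.32 (limma adjusted p = 0.0748). The median over the 98 genes was 0.699 CPM per kb, against 3.70 for the 82 genes they are named after. In 15 of the 90 pairs with a row for both, the opposite-strand gene was above its gene per kb; among the 5 just named these were Chd3os, Wdr83os and Cebpzos. The 20 genes that rose had mean Ctrl values between 0.6 and 8.12 CPM, where a step of the rounded table is 0.1.

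Of the 82 genes with a row that these transcripts are named after, 2 rose and none fell at 28 dpi, against 4.15% and 0.488% of all genes. Leaving out 1 animal gave 2 to 5 higher and 0 to 2 lower. None rose with the 18S covariate or the same sum, under which most fell, as did 63.9% of all genes. On the deposited scale, 20 of the 82 had an unadjusted limma p under 0.05 and a value above Ctrl, against 15 below, where 18.3% and 20.2% of all genes did. The median log2 fold change of the 82 was 0.015. For the 31 named genes with an opposite-strand gene inside them the median was 0.13, with 1 called, 13 above Ctrl and 5 below at an unadjusted limma p under 0.05, and 10 of the 31 with every 28 dpi animal above every Ctrl animal, against 6.15% of all genes. For the 25 with a head-to-head gene the median was -0.0074, with none called and 9 of the 25 at an unadjusted limma p under 0.05, near the 38.5% of all genes. Of the 20 opposite-strand genes that rose, 19 had a named gene with a row, which makes 18 genes since Rapgef4 has 2 of them. None of the 18 passed the 1.5-fold limit, but 7 were higher and 1, Rapgef4, was lower at a limma adjusted p under 0.05, which 24.9% of all genes reached in either direction. The 7 were Dnm3 (log2 fold change 0.37), Kirrel3 (0.31), Mccc1 (0.32), Nrg3 (0.31), Pitpnm2 (0.57), Plxna4 (0.41) and Sorbs2 (0.40). Over the 18 genes the values ran from -0.23 to 0.57, and 11 were above 0.

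**Figure D3:**
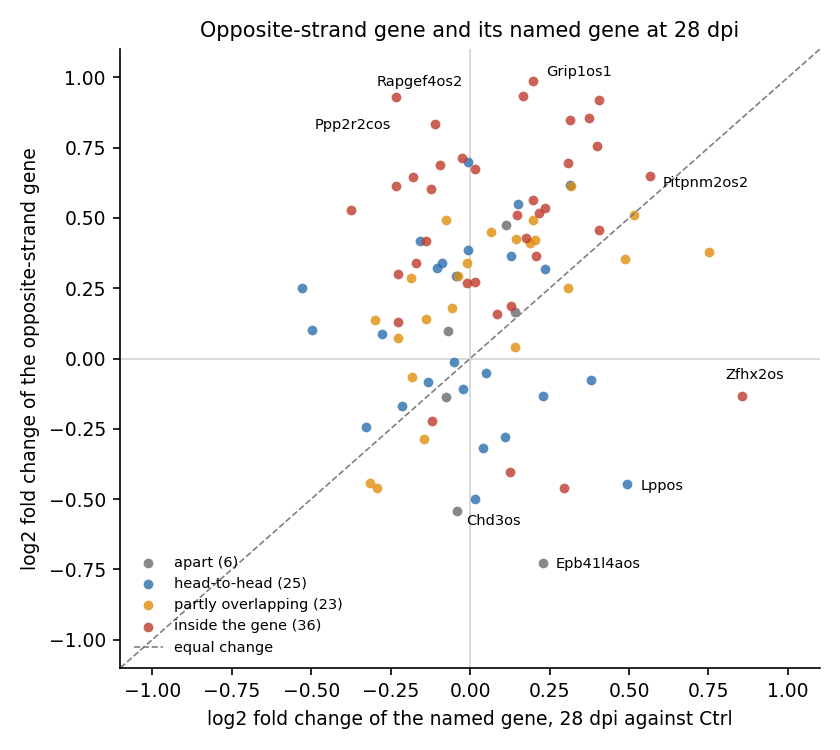
Log2 fold change at 28 dpi against Ctrl of the named gene (horizontal axis) and of its opposite-strand gene (vertical axis) for 90 pairs, coloured by position; the dashed line marks equal change. In 67 of the 90 pairs the point lies above the line.

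In 67 of 90 pairs the opposite-strand gene changed more upward than its gene, by a median of 0.29 on the log2 scale. For the pairs with the member inside its gene this was 32 of 36, with a median of 0.38, and for the head-to-head pairs 17 of 25, with a median of 0.085. The ratio of the 2 values within an animal was tested for all 90 pairs with an exact two-sided permutation test of 28 dpi against Ctrl, where 5 against 5 animals cannot give a p below 0.00794. In 15 of the 90 pairs the ratio reached that smallest p, upward in 13 and downward in 2, and 30 of the 90 had a raw exact p under 0.05. These p-values were not adjusted for the 90 tests. Of the 98 opposite-strand genes, 23 share 10% or more of their 31-base words with their named gene, up to 75.5%, and 43 share none. Where words are shared, the 2 values of a pair are not measured independently, and the effect on the ratios was not tested.

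The largest change of ratio was that of Rapgef4os2 to Rapgef4, at 1.16 on the log2 scale. Among the pairs whose ratio did not overlap between the groups, it was followed by Ppp2r2cos to Ppp2r2c with 0.94, Mypopos to Mypop with 0.83 and Grip1os1 to Grip1 with 0.79, and Lppos to Lpp changed by -0.94 in the opposite direction. Rapgef4os3 to Rapgef4 changed by 0.85, with overlap. Pairs were named in part for the size of this difference, so these values are a description. Lpp, the gene of a LIM protein of focal adhesions, had 18.4, 21.4, 15, 19 and 17.2 in Ctrl animals and 23.1, 27.3, 25, 29.3 and 24.2 at 28 dpi, which is 0.50 on the log2 scale (limma adjusted p = 0.00186). Lppos had 1.2, 1.7, 1.8, 1.8 and 1.7 against 1.4, 0.8, 1.5, 1.2 and 0.6, which is -0.45 on the log2 scale (limma adjusted p = 0.0789).

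Both named genes that were called higher, Zfhx2 and Zmiz1, had an opposite-strand gene that was not called. Zfhx2, a zinc-finger homeobox gene, had a log2 change of 0.85 (limma adjusted p = 0.00115), with 23.1, 23.3, 20.2, 25.7 and 26.4 in Ctrl animals and 36.3, 52.6, 44.5, 37.8 and 46.5 at 28 dpi. Zfhx2os had 1.9, 1.2, 1.3, 1.5 and 0.5 against 2.1, 0, 0.6, 2.1 and 2 (log2 fold change -0.13, limma adjusted p = 0.834), and 73.1% of its exon bases lie on exons of the other strand. Zmiz1, the gene of a transcriptional coactivator, had a change of 0.75 (limma adjusted p = 0.00397), and Zmiz1os1 one of 0.38 (limma adjusted p = 0.207). Neither difference in ratio reached 0.05 in the exact permutation test (p = 0.135 for Zfhx2os and 0.0635 for Zmiz1os1).

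Genes with several opposite-strand transcripts showed that members of 1 locus differed in their call. At 7 named genes the table holds 15 members. In the introns of Grip1, Grip1os1 was called and Grip1os2 was not (log2 fold change 0.56, limma adjusted p = 0.0417), nor was Grip1os3, which overlaps Grip1 in part (0.49, limma adjusted p = 0.0683). At Plxna4, Plxna4os2 was called and Plxna4os1 was not (0.46, limma adjusted p = 0.111). At Macrod2 the second member, Macrod2os2, had 0.27 (limma adjusted p = 0.39), and at Rapgef4 both were called. Neither member was called at Bcas1 (Bcas1os1 0.13, Bcas1os2 0.30), a gene of myelinating oligodendrocytes, at the reelin receptor gene Lrp8 (Lrp8os2 0.54, Lrp8os3 0.32) or at the prohormone convertase gene Pcsk2 (Pcsk2os1 0.34, Pcsk2os2 0.27). All 15 values were above 0, and the differences between members of 1 locus were not tested.

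Before and after 28 dpi no opposite-strand gene was called against Ctrl. By limma, 0 of 98 were called at 4, 7, 14 and 42 dpi, where 0.0941%, 0.0294%, 0.00588% and 0.0235% of all genes were. With an unadjusted p under 0.05 there were 0, 5, 4 and 17 at these time points, against 5.14%, 5.84%, 11.6% and 14.8% of all genes. All 17 at 42 dpi were above Ctrl, where 1428 of all 16995 genes were above and 1079 below at an unadjusted limma p under 0.05. Of 684 lincRNA genes, 135 were above and 8 below. A log2 fold change above 0 at 42 dpi was found for 68 of the 98 genes and for 8220 of all 16995. The 20 genes called at 28 dpi had median log2 fold changes of 0.16, 0.072, -0.036 and 0.39 at 4, 7, 14 and 42 dpi. On day 42 all 20 were above 0, from 0.11 to 0.63. The 20 were chosen against the same Ctrl animals, so their values at the other time points are a description.

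Between 14 and 28 dpi, 27 of the 98 genes rose and 4 fell, against 7.56% and 4.22% of all genes. These counts depended on the scaling: fewer rose with quantile normalization and fewest with the same sum, as given under the processing below. Of the 27, 15 were also among the 20 that rose against Ctrl. Plxna4os2 had the largest step, from 2, 1.3, 1.2, 1.6 and 1.2 at 14 dpi to 3.1, 4.9, 3.2, 4.5 and 4.3 at 28 dpi (log2 fold change 1.20, SE 0.19, limma adjusted p = 3.6e-05), followed by Grip1os1 with 1.16 and Ppp2r2cos with 1.09. In the class inside its gene 20 of 36 rose, with a median of 0.68. The 4 that fell were Epb41l4aos (-0.97), Abhd11os (-0.83), Lhx1os (-0.69) and Chd3os (-0.65), and 2 of these were outside the naming rule and named because they were so few.

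The share of intronic bases went with the change at 28 dpi. Among the 32 opposite-strand genes with at least 90% of their exon bases in introns of the other strand, 14 rose, 31 were above 0 and the median was 0.53. Among the 37 with 10% to 90% there, 4 rose and the median was 0.29, and among the 29 with under 10%, 2 rose, 1 fell and the median was 0.074. The labels name a kit that was read as not marking the strand, and the library type set for the quantification is not given in the sources used here. Without strand, reads of an opposite-strand exon and reads of unspliced RNA of the gene around it cannot be told apart, and the part of such reads in these values was not tested.

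**Figure D4:**
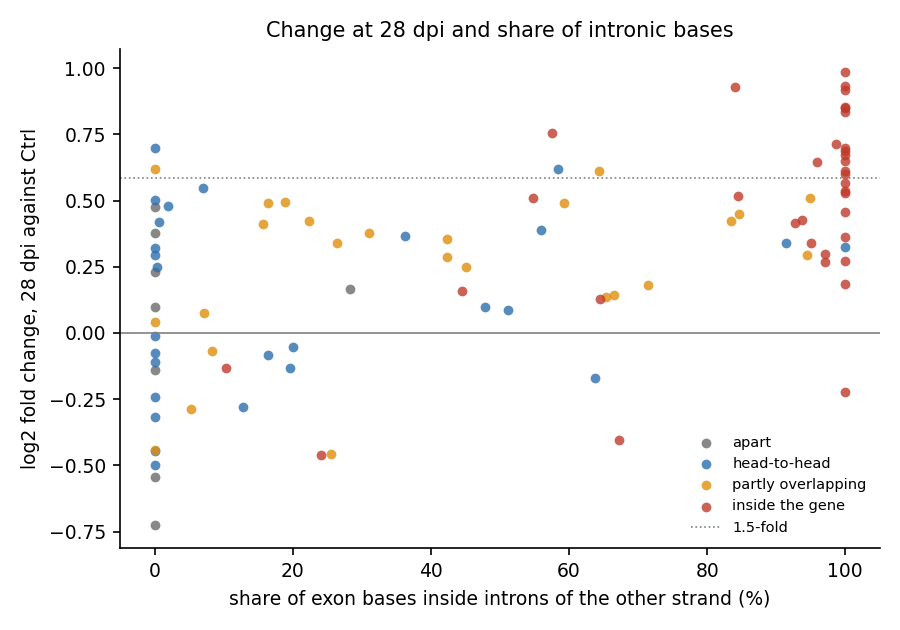
Share of a gene's exon bases that lie in introns of a gene on the other strand (horizontal axis, percent) and its log2 fold change at 28 dpi against Ctrl (vertical axis), coloured by position; the dotted line marks 1.5-fold. At 90% and above, 31 of 32 genes lie above 0.

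Other noncoding classes of the table are given for comparison. Of 527 antisense genes of the table without an "os" name, 15.6% rose at 28 dpi, with a median log2 fold change of 0.34, and 82 rose against 3 that fell. Those with at least 90% of their exon bases in introns of the other strand (n = 157) had 29.3% called higher and a median of 0.46, and those with under 10% (n = 141) had 11.3% and 0.23. Of 684 lincRNA genes, 19.4% rose and the median was 0.36. Protein-coding genes (n = 14437) had 2.09% called higher and a median of -0.035. Only 5 noncoding genes had names ending in as, ot or it, and 1 of these rose. These are counts and medians, without a test between classes.

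Within groups, an opposite-strand gene and its gene varied with little relation in these values. After subtraction of the group means, Pearson's r of their log2 values over the 29 animals had a median of 0.069 over the 90 pairs, between -0.44 and 0.68, and was above 0 in 54. The medians were 0.080 for pairs with the member inside its gene, 0.043 for head-to-head pairs and 0.11 for partly overlapping pairs. These are descriptions, since the values of a pair share library and normalization, and some pairs share sequence. The median Ctrl value of the opposite-strand genes was 1.39 CPM, in values rounded to 0.1. Such low values can hold r near 0 whatever the relation, so a small r does not show that a pair varies independently. Chd3os and Chd3 had an r of 0.57, Dnm3os and Dnm3 one of 0.62, and Fam120aos and Fam120a one of -0.42.

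The 18S ribosomal RNA Rn18s-rs5 also differed between animals. It was above the Ctrl range in 4 of 5 animals at 28 dpi, in all 5 at 42 dpi and in 3 of 5 at 7 and at 14 dpi. At 4 dpi it reached from 18295.2 to 114026, both below and above the Ctrl range. Its normalized CPM ran from 30320.8 to 52929.1 in Ctrl animals, from 44755.2 to 779160 at 28 dpi and from 78737.4 to 457302 at 42 dpi. With this value as a covariate, none of the 98 genes was called at 28 dpi against Ctrl in limma, and 0% of all genes were. The step from 14 to 28 dpi gave 27 higher and 4 lower with the covariate. The share of all genes in that fit is not given here, so these 2 counts cannot be set against the whole table. The median log2 fold change of the class inside its gene at 28 dpi was 0.56 with the covariate and 0.53 without. With every animal scaled to the same sum, of which the 18S value is a part, the median of all genes at 28 dpi was -0.71, 0 of the 98 were called higher and 20 lower, and 15 of the 20 genes that rose on the deposited scale were above 0. Relative to all genes, the class inside its gene then stood at 0.69, against 0.54 on the deposited scale, and the head-to-head class at 0.30 against 0.10.

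Single animals gave further values. At 28 dpi, animal A4-1 had the lowest 18S value, 44755.2, within the Ctrl range, and 18 of the 20 genes that rose were above the Ctrl range in it, a count that the choice of the 20 on these animals helps to set. At 14 dpi, 8 of the 20 were above the Ctrl range in animal A6-3, which had the highest 18S value of all, 817780. Of the other animals of that group, A5-3 (18S value 419050) had 1 of the 20 above the range, A5-1 (95113.7) had 9, and A5-4 and A6-2 had 0 and 1. Over the class inside its gene, the median log2 difference from the Ctrl mean ran from 0.42 to 0.85 in the 28 dpi animals, from -0.24 to 0.069 in those of 14 dpi and from 0.010 to 0.46 in those of 42 dpi. The highest, 0.85, belonged to animal A3-3, which was also the highest of its group for 18 of the 20 genes. Without A3-3, 12 genes were called higher in place of 20, and 2.24% of all genes in place of 4.15%.

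**Figure D5:**
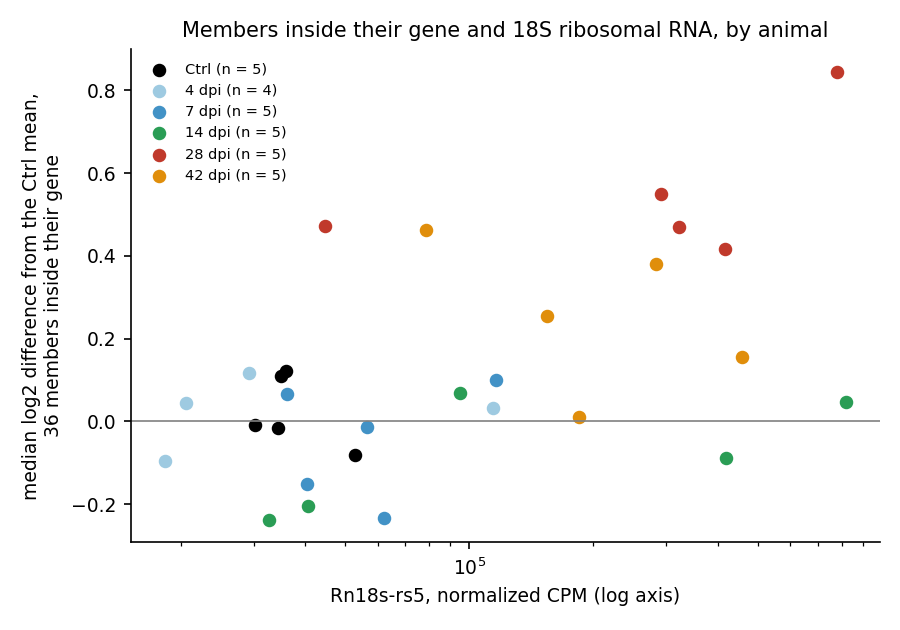
Normalized CPM of the 18S ribosomal RNA Rn18s-rs5 (horizontal axis, log scale) and the median log2 difference from the Ctrl mean of the 36 opposite-strand genes inside their gene (vertical axis), 1 point per animal (n = 29), coloured by group. The 28 dpi animals lie between 0.42 and 0.85, the one within the Ctrl range of 18S included.

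All 8 listed markers of spinal neurons and all 5 Hox genes of the cervical level were above 0 in every animal. At 28 dpi, the oligodendrocyte marker Mog had a log2 change of -0.44 (limma adjusted p = 0.0043), short of the 1.5-fold limit. No marker of the neuron, astrocyte, microglia or endothelium lists passed the 1.5-fold limit. Col1a1, 1 of 3 genes of the meningeal fibroblast list, was called higher (log2 fold change 0.61, limma adjusted p = 0.0333). At a limma adjusted p under 0.05, 1 neuron marker was higher and 1 lower, and 1 astrocyte marker was higher and 2 lower. In the same way 2 oligodendrocyte markers were lower, and 1 microglia and 1 endothelium marker were higher. Of all genes, 24.9% reached that limit in either direction. The summed level of the pituitary hormone genes Prl, Gh and Pomc ran from 0.2 to 0.7 CPM in Ctrl animals, from 2.2 to 17.3 in the 4 dpi group, from 0.5 to 28 in the 7 dpi group, from 1.2 to 7.7 in the 14 dpi group, from 0.2 to 14.4 in the 28 dpi group and from 0.3 to 3.5 in the 42 dpi group, so that every animal at 4 and 14 dpi lay above the Ctrl range, with none of the 3 genes called at 28 dpi (limma adjusted p from 0.146 to 0.387). The part of the pituitary transcripts and of the cell makeup in the changes of the opposite-strand genes was not tested.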

How the data were processed

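Total RNA was depleted of ribosomal RNA and sequenced by the authors with a kit (TruSeq RNA v2) read here as not marking the strand; the library type set in SALMON is not given in the sources used here. The deposited score values are normalized CPM (read counts scaled to library size), made by the authors with SALMON on mm10, Tximport and edgeR 3.14.0 under R 3.4.1, with low genes removed and values rounded to 0.1. They are not counts, and the depth of each library is not given in the sources used here. Of 30 labelled animals, 29 had a column of values. Groups came from the sample titles.

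The members and lists were chosen with earlier results of these data known. All 16995 genes were fitted together with limma 3.58.1 (R 4.3.3) on log2(CPM + 0.5), with 1 mean per group, a trend of the variance and Benjamini-Hochberg adjustment. The fit was tested on simulated data. Fold changes are on that scale and understate those of low genes. Positions came from GENCODE M21. Named were called members (at most the 20 largest changes), the 5 highest per kb, members that share a gene, the 5 pairs with the largest separated difference, and members of called genes. Alternatives were other pseudocounts (1 and 0.1), a filter, other scalings, no trend, a 2-group fit, the number in the animal label (A1 to A12) as a random block, an 18S covariate and leaving out each animal. Some marker genes are not reported here.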

Additional observations from a re-analysis of the deposited data

Results flagged for a closer look

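Among the 21 called genes, every group of 4 or 5 animals was checked for a single animal that stood apart from its group by Dixon’s test, and 11 did, 8.73% of the groups checked, where chance gives about 1 in 20 for values that are not rounded. Several of these values differ by few steps of the table, which is rounded to 0.1. At 28 dpi animal A3-3 stood apart for Mecomos, with 5.6 normalized CPM against 4.9 to 5.1 in the others, and for Pitpnm2os2, with 4.2 against 2.2 to 2.6. Without A3-3, 12 of the 98 opposite-strand genes were called higher at 28 dpi, and 2.24% of all genes. In the Ctrl group, animal A11-1 was low for Plxna4os2 (1.2, the next 1.9) and for Rapgef4os2 (0.4, all others 0.8), and animal A11-4 was low for Far2os1 (0.4, the next 0.7). At 14 dpi, animal A5-1 was high for Il1bos (3.3, the next 2.2) and animal A6-3, which also had the highest 18S value, for Far2os1 (1, the next 0.7). At 7 dpi, animal A7-4 was high for Dnm3os (8.2, the next 5.6) and animal A7-2 for Sorbs2os (2.8, the next 1.5). At 4 dpi, animal A10-4 was high for Gimap1os (0.9, all others 0.6) and animal A9-2 low for Pitpnm2os2 (1.4, all others 1.6), which is a distance of 2 rounding steps of the table.

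The effects at 28 and 14 dpi differed by more than 1.5-fold with an adjusted p under 0.05 in limma's test of the difference itself for 27 of the 98 genes that were higher at 28 dpi and for 4 that were lower, against 7.56% and 4.22% of all genes. Without the 1.5-fold limit, 53 of the 98 passed, against 43% of all genes.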

How the results depend on the processing

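Values rounded to 0.1 CPM limit what can be seen of genes near 1 CPM, and depth is unknown. Of the 20 genes higher at 28 dpi, 20 were above 0 under every alternative that kept them, except 15 when every animal was scaled to the same sum. The number called higher was 12 with a pseudocount of 1 (2.46% of all genes, against 4.15%), 12 with quantile normalization (2.66%), 0 with the same sum (0.2%) and 0 with 18S as a covariate (0%), and 12 to 22 when 1 animal was left out, where 12 was reached without A3-3 (2.24%) and 15 of the 20 stayed without Ctrl A12-1. The number lower was 0, 3, 20 and 0 under these alternatives (0.282%, 0.936%, 63.9% and 0% of all genes), 2 with a pseudocount of 0.1, 0 in the 2-group fit and 0 to 2 with 1 animal left out. Between 14 and 28 dpi, 16 rose with a pseudocount of 1, 13 with quantile normalization and 2 with the same sum, and 7 fell with quantile normalization. Leaving out 1 animal gave 23 to 32 higher and 2 to 6 lower for this step, 2 without A3-3. The shares of all genes under these alternatives are not given for this step, so its counts cannot be set against the whole table. Of the named genes, 0 rose with the same sum and 0 with the covariate, 55 of the 82 fell with the same sum, under which 63.9% of all genes did, and leaving out 1 animal gave 2 to 5 higher and 0 to 2 lower. The cause was not tested.

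The same sum, which the 18S value dominates in some animals, shifted the median of all genes to -0.71 and turned these log2 fold changes at 28 dpi: Bcas1os1 -0.42, Bcas1os2 -0.35, Cyp4x1os -0.048, Grip1os3 -0.064, Il1bos -0.043, Lrp8os2 -0.019, Lrp8os3 -0.075, Macrod2os1 -0.079, Macrod2os2 -0.23, Mccc1os -0.12, Mypopos -0.019, Pcsk2os1 -0.37, Pcsk2os2 -0.22, Plxna4os1 -0.026 and Zmiz1os1 -0.16. Among the named genes it turned Bcas3 -0.61, Dnm3 -0.41, Epb41l4a -0.42, Fam120a -0.74, Gimap1 -0.10, Grip1 -0.58, Kirrel3 -0.46, Lpp -0.27, Lrp8 -0.54, Macrod2 -0.76, Mccc1 -0.45, Nrg3 -0.46, Pitpnm2 -0.21, Plxna4 -0.38, Sorbs2 -0.38 and Zmiz1 -0.027. The medians of the classes inside, head-to-head and partly overlapping were -0.027, -0.41 and -0.20.

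Further changes of sign were Bcas1os1 -0.082, Cyp4x1 0.036 and Pcsk2 0.017 with quantile normalization, Cyp4x1 0.025, Mecom 0.0058 and Pcsk2 0.022 with the same median, and Cyp4x1 0.032, Fam120a -0.056, Pcsk2 0.0049, Pcsk2os2 -0.22, Rab10os 0.021 and Zfhx2os 0.049 with the covariate. With a pseudocount of 1, the log2 ratio to the gene was -0.0036 for Lrp8os3, -0.016 for Pitpnm2os2 and -0.067 for Plxna4os1. Leaving out 1 animal gave -0.047 to 0.29 for Bcas1os1, -0.092 to 0.0012 for Chd3, -0.051 to 0.023 for Cyp4x1, -0.030 to 0.061 for Macrod2, -0.072 to 0.039 for Mecom, -0.035 to 0.012 for Pcsk2 and -0.33 to 0.28 for Zfhx2os. For ratios it gave -0.005 to 0.20 for Lrp8os3, -0.064 to 0.21 for Pitpnm2os2 and -0.050 to 0.20 for Plxna4os1. Counts at the other time points stayed at 0 under all alternatives. No paired analysis was possible because the groups compared share neither an animal label nor its first number (A3 is shared by 28 and 42 dpi, which were not compared with each other).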
